A study of Mus musculus with 13 samples.

Results

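The insulin-like growth factor (IGF) axis was described in UG26-1B6 stroma through 10 genes. They were the ligands Igf1 and Igf2, the receptor Igf1r, the adaptor Irs2 and the binding proteins Igfbp2, Igfbp3, Igfbp4, Igfbp5, Igfbp6 and Igfbp7. Their probe sets were those of the deposited table that carry a member's name as their only gene symbol. Of 27 such probe sets, 22 passed a filter on low values, and the probe set with the highest mean over all 13 arrays stood for its gene. All 10 genes had a probe set past the filter, among 12205 genes tested. The 5 probe sets that did not pass, of Igf2, Igf1r, Igfbp4, Igfbp5 and Igfbp7, lay between the table's lowest value of 2.28 and 2.31 on every array.

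IGF ligands bind a receptor tyrosine kinase encoded by Igf1r, which passes the signal through adaptors such as Irs2 to PI3 kinase and AKT, and from there to mTOR and the FOXO transcription factors. Secreted binding proteins hold the ligands outside the cell and set how much reaches the receptor, and proteases cut the binding proteins and free the ligand. Stromal cells of haematopoietic tissue are a known source of IGF1 and of binding proteins, several of which have been studied as factors acting on haematopoietic stem and progenitor cells.

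Expression was measured on 13 mouse microarrays of UG26-1B6, a single stromal clone from the urogenital ridge of midgestation embryos. The day 0 group (n = 3) was trypsinised stroma that had seen no co-culture. The medium control (n = 2) was stroma 24 h after its medium was replaced, with no blood cells added. The co-culture groups were stroma irradiated with 30 Gy and kept for 1 (n = 3), 2 (n = 3) or 3 days (n = 2) with LSK cells, a lineage-negative, Sca-1 and Kit positive fraction rich in haematopoietic stem and progenitor cells. The series asks how factors made by this stroma bear on stem cell maintenance, and the medium control was taken at the same 24 h as day 1 of co-culture. Irradiation is stated for the co-culture stroma alone in the sources used here, and if the other groups had none, co-culture and irradiation cannot be told apart. Replicates are called biological in the titles and technical in the design text, so a p-value here speaks only of the spread seen among these 13 arrays. Levels are log2 values, and a level of one probe set was not set against that of another. Changes are differences of group means with their standard error (SE) from limma, and the threshold was a Benjamini-Hochberg adjusted p of 0.05 over all genes tested.

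The wells held both cell types, so the arrays were first read for their markers. Of 10 stroma markers, 8 were measured, among them Col1a1, Col3a1 and Pdgfrb, and their mean level ran from 9.89 to 11.03 at day 0, 9.69 to 9.84 in the medium control, 8.89 to 9.85 on day 1, 6.59 to 9.00 on day 2 and 9.13 to 9.25 on day 3. The mean of 14 measured granulocyte, monocyte and macrophage markers (of 15) ran from 3.04 to 3.35, 3.07 to 3.11, 4.23 to 5.40, 5.98 to 9.84 and 7.06 to 7.81 in the same order. Mpo, the peroxidase of granulocyte precursors, was at 3.53 on all 5 arrays without LSK cells and at 5.61 to 12.4 on the 8 with them. Stem and progenitor markers, 9 of 15 measured, averaged 3.56 to 3.76 at day 0, 3.48 to 3.70 on day 1 and 4.57 to 8.38 on day 2. In such bulk samples fewer stromal cells and less RNA per stromal cell cannot be told apart. The mean signal of poly-A spike-in RNAs was 3.64 to 6.01 at day 0, 3.31 to 3.46 in the medium control and 6.78 to 12.8 on the co-culture arrays. Replicate 1 of day 2 stood apart: its Gapdh 3′ probe sets exceeded the 5′ ones by 8.96, against 2.15 to 3.82 on all other arrays but day 3 replicate 2 (5.79), and it correlated with no other array above 0.785 across genes. It was the lowest array for 4 of the 10 members and for 35.7% of all genes.

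**Figure D1:**
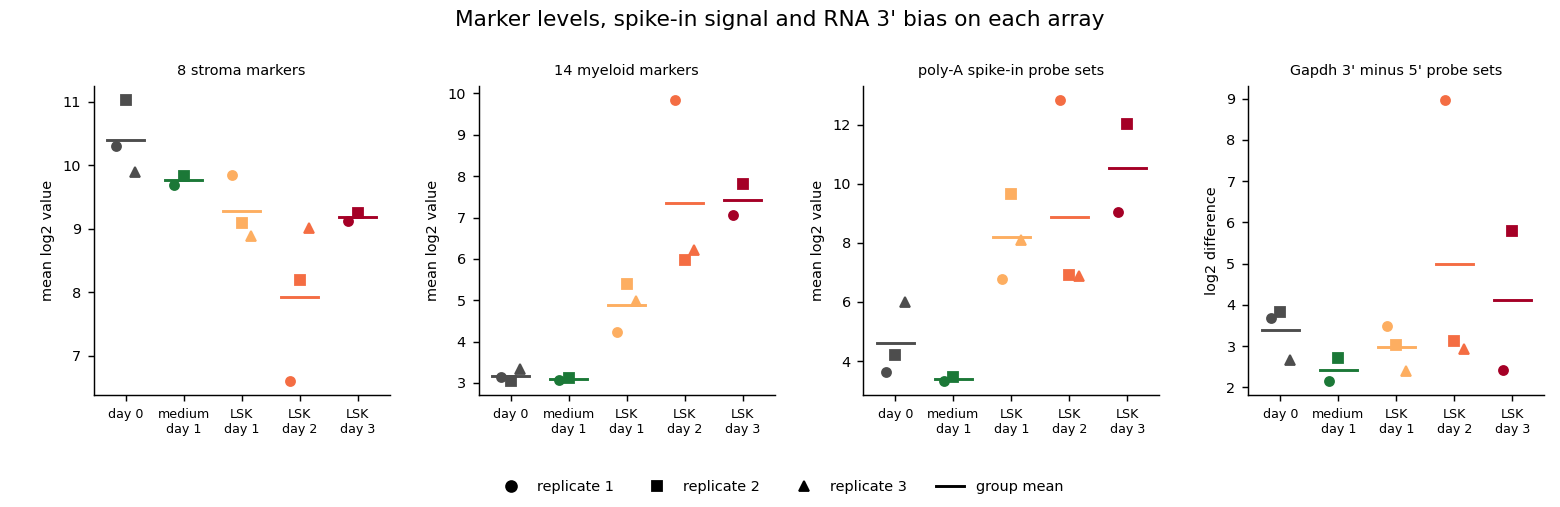
Mean log2 value of 8 stroma markers, 14 myeloid markers and the poly-A spike-in probe sets, and the log2 difference between 3′ and 5′ Gapdh probe sets, for each array (points, by replicate) with the group mean (bar). Myeloid markers and spike-in signal were higher on the 8 co-culture arrays than on the 5 others, and day 2 replicate 1 had the lowest stroma mean (6.59) and the largest Gapdh difference (8.96).

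The promoter windows of Igf1 and Irs2 are shown because these were the members whose calls passed, both lower on day 1 of co-culture than in the medium control. Each window holds the 250 bases before the start site that RefSeq gives on GRCm38.p6, read 5′ to 3′ on the gene's strand. The Igf1 window lies at chr10:87860861-87861110 on the plus strand and the Irs2 window at chr8:11008930-11009179 on the minus strand. Capitals mark matches to 4 motifs searched on both strands: the FOXO core GTAAACA, the cAMP response element TGACGTCA, the TATA box TATAAA and the GC box GGGCGG.
Igf1: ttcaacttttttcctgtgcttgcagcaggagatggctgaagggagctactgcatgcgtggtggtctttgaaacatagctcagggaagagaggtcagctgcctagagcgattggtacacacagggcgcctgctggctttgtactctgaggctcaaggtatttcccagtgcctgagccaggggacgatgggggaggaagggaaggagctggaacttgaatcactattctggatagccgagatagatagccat
Irs2: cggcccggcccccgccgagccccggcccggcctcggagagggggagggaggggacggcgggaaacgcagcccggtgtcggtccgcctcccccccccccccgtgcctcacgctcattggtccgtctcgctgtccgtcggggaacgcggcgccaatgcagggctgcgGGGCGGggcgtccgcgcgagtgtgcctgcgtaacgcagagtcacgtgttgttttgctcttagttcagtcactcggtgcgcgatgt
The Irs2 window held 1 GC box, 85 bases before the start, a G+C content of 72.8% and 34 CG dinucleotides. The Igf1 window held 0 matches to these motifs, a G+C content of 52.8% and 5 CG dinucleotides. Among all 32851 windows of this length, 32.7% held a GC box, 12.4% a TATA box, 3.17% a FOXO core and 1.55% a cAMP response element. A match describes letters only, and no factor binding was measured.

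Igf1, which encodes the ligand IGF1, had the larger of the members' called falls. It was 10.6-fold lower after 1 day with LSK cells than in the medium control, and this call ended with any day 1 array left out. Against day 0 the probe set that stood for Igf1 did not pass on any day of co-culture. Irs2 was the other member that moved: it rose at least 8.38-fold from day 0 to the medium control and was 2.93-fold lower on day 1 of co-culture than in that control. The call of this fall also ended with any day 1 array left out. The receptor, Igf2 and the 6 binding proteins did not pass in any of the 7 comparisons. Of the 10 members, 2 fell and 0 rose past the threshold on day 1 of co-culture against the medium control, where 5.2% of all genes passed and 3.05% passed as lower. From day 0 to the medium control 1 rose and 0 fell, where 0.328% of all genes passed and 0.221% passed as higher.

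Igf1 was represented by the probe set 1452014_a_at. It read 7.52, 4.62 and 5.41 at day 0, 7.68 and 7.88 in the medium control, and 4.47, 4.29 and 4.37 on day 1 of co-culture. It read 2.28, 4.10 and 4.06 on day 2 and 5.07 and 4.37 on day 3. Both medium arrays were above all other arrays, and day 0 replicate 1 lay beside them while the other day 0 arrays lay near co-culture. In the order of group means, medium control, day 0, day 3, day 1 and day 2, the ranges of day 0 and day 3 and of day 3 and day 1 overlapped. On day 1 Igf1 was at 4.38 ± 0.09 (SD, n = 3) against 7.78 ± 0.15 (SD, n = 2) in the medium control, a log2 change of -3.40 ± 0.79 (limma, adjusted p = 0.0427). The call ended with any 1 of the 5 compared arrays left out (change -3.51 to -3.30, adjusted p = 0.109 to 0.267) and also without day 0 replicate 3 (0.0593) or either day 3 array (0.0517).

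The other 3 probe sets of Igf1 gave larger differences. Their levels were 6.87 to 7.77 (1419519_at), 5.41 to 8.01 (1434413_at) and 3.86 to 7.41 (1437401_at) at day 0, and 7.45 to 7.99 in the medium control over all 3. On the 8 co-culture arrays they read 2.79 to 4.90, 2.28 to 2.31 and 2.37 to 2.64. For each of these 3 the 5 arrays without LSK cells were all above the 8 with them. How many of all genes part the arrays so was not counted. The chosen probe set overlapped, since day 0 replicate 2 (4.62) lay under day 3 replicate 1 (5.07). Its mean over all arrays, 5.087, was only just above that of 1419519_at, 5.083.

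Against the medium control, all 4 Igf1 probe sets passed on day 1 of co-culture. The changes were -4.30 ± 0.66 (limma, adjusted p = 0.0128) for 1419519_at, -4.99 ± 0.77 (0.013) for 1437401_at and -5.36 ± 0.57 (0.0032) for 1434413_at. The last of these lay under the filter value of 2.38 on every co-culture array, so its fall is a bound: measured down to 2.38 it was at least 5.27, or at least 38.7-fold. That probe set passed the filter through the arrays without LSK cells alone, so its p-value is no separate support for a fall. With 1 compared array left out, the call held in 4 of 5 removals for 1434413_at (ended without medium replicate 2, adjusted p = 0.0566) and in 1 of 5 for each of 1419519_at and 1437401_at (highest 0.137 and 0.135, each without a medium array or day 1 replicate 2 or 3).

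Against day 0 the chosen Igf1 probe set did not pass, at -1.47 ± 0.71 on day 1 (limma, adjusted p = 0.334), -2.37 ± 0.71 on day 2 (0.0956) and -1.13 ± 0.79 on day 3 (0.611). The probe set 1434413_at passed on all 3 days, with changes of -4.29 (adjusted p = 0.00879), -4.28 (0.00788) and -4.28 (0.0226). Measured down to the filter value, it was at least 18.5-fold lower than at day 0. It passed the filter through the arrays without LSK cells alone, so its p-values are no separate support for a fall. The probe set 1419519_at passed on days 1 and 2 (-3.64, adjusted p = 0.0223, and -3.76, 0.0224) and gave -3.36 (0.0583) on day 3. The probe set 1437401_at gave -2.96 (0.0636), -3.07 (0.0532) and -2.98 (0.124). Leaving out 1 array at a time, the 1434413_at call held in 11 of 13 removals on day 1 (ended without day 1 replicate 2 or 3) and in 13 of 13 on day 2. On day 3 it held in 7 of 13, and ended without day 0 replicate 2, either medium array, day 1 replicate 2 or 3, or day 3 replicate 2 (0.0567 to 0.0886), and with the replicate number as a block (0.076). The 1419519_at calls held in 7 of 13 on each of days 1 and 2, with adjusted p up to 0.11 and 0.0808. Both ended without day 0 replicate 1 or 2, either medium array or day 1 replicate 3, and further without day 1 replicate 2 (on day 1) or day 2 replicate 2 (on day 2). Centring ended the day 2 call of 1419519_at (0.0704). From day 0 to the medium control all 4 probe sets were higher, by 0.66 to 2.03, and 0 of 4 passed.

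The stroma markers did not move together between day 1 and the medium control. Their median change was -0.69, and 0 of 8 passed, where 5.2% of all genes did. Pdgfrb (2.07) and Col1a1 (0.17) were higher on day 1, and the others were lower, down to -1.89 for Col1a2. Spike-in signal was higher on the same co-culture arrays, and the part of cell mixture and RNA amount in the Igf1 difference was not tested.

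**Figure D2:**
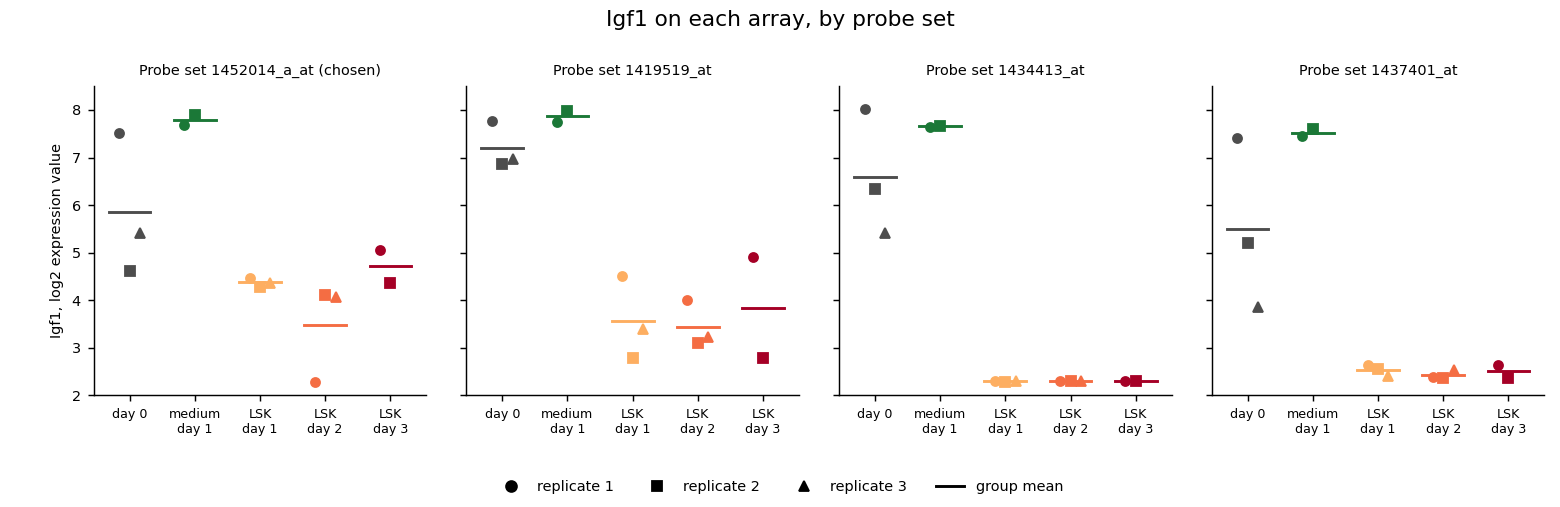
Log2 expression value of Igf1 on each array (points, by replicate) with the group mean (bar), in 1 panel for each of its 4 probe sets on a common axis. The medium arrays read 7.45 to 7.99 in all panels, while 1434413_at stayed at 2.28 to 2.31 on the 8 co-culture arrays.

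Igf2, the fetal ligand of the same receptor, was hardly seen. Its chosen probe set stayed at 2.40 or 2.41 on 9 of 13 arrays and reached 3.52 at most, on day 1 replicate 1. Day 0 read 2.80, 2.83 and 2.40, and day 3 read 3.20 and 2.40. Its other probe set lay at the lowest value of 2.28 on all arrays. Changes of Igf2 ran from -0.37 to 0.37 over the 7 comparisons, and 0 passed.

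Igf1r, the receptor for both ligands, was highest in the medium control and lower in co-culture. The chosen probe set read 9.39, 7.81 and 7.48 at day 0, 9.36 and 9.26 in the medium control and 7.76, 7.50 and 6.91 on day 1. It read 4.07, 7.35 and 7.60 on day 2 and 6.70 and 6.23 on day 3. Both medium arrays and day 0 replicate 1 lay above all others, and the lowest value was that of day 2 replicate 1. The change on day 1 against the medium control was -1.93 ± 0.97 (limma, adjusted p = 0.303), with no overlap between the groups. With day 2 replicate 1 left out, which enters this comparison only through the shared estimate of spread, the same change carried adjusted p = 0.038. Against day 0 the changes were -0.84 ± 0.86 on day 1, -1.89 ± 0.86 on day 2 and -1.76 ± 0.97 on day 3 (adjusted p = 0.753, 0.199 and 0.471), and the day 2 change was -0.75 without replicate 1. The other probe sets of Igf1r differed: on day 1 against the medium control 1428967_at gave -1.26 ± 0.46 (0.152) and 1426565_at gave 0.23 ± 0.29 (0.796), and 1452108_at lay under the filter value in both groups.

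Irs2, which docks PI3 kinase to the activated receptor, had a single probe set. It read 3.73, 2.28 and 2.28 at day 0 and 5.97 and 5.83 in the medium control. It read 4.27, 4.33 and 4.43 on day 1, 3.82, 3.73 and 3.63 on day 2, and 3.68 on both day 3 arrays. The medium arrays were the highest, the day 1 arrays followed with no overlap on either side, and days 2 and 3 overlapped day 0 only through day 0 replicate 1. Only 1 of 3 day 0 arrays lay above the filter value of 2.38, so a difference from day 0 is a bound: with the other 2 set to that value, the rise to the medium control was at least 3.07. As fitted, it was 3.13 ± 0.38 (limma, adjusted p = 0.0164). With 1 of the 5 compared arrays left out it was 2.89 to 3.61, and the call held without day 0 replicate 1 (0.000222) or 3 (0.0483) and ended without day 0 replicate 2 (0.0552) or medium replicate 1 (0.198) or 2 (0.206), and also without day 1 replicate 3 (0.0525). On day 1 against the medium control Irs2 fell by 1.55 ± 0.38 (adjusted p = 0.0496), and this call ended with any 1 of the 5 compared arrays left out (0.127 to 0.305). It also ended without day 0 replicate 2 or 3, day 2 replicate 2 or either day 3 array (0.0513 to 0.0602).

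Against day 0, with the same limit, Irs2 differed by 1.58 ± 0.34 on day 1 (limma, adjusted p = 0.0508, and 0.0269 without day 2 replicate 1), by 0.96 ± 0.34 on day 2 (0.129) and by 0.91 ± 0.38 on day 3 (0.331). So on day 1 it lay between the day 0 level of 2.76 ± 0.83 (SD, n = 3) and the medium level of 5.90 ± 0.10 (SD, n = 2), at 4.34 ± 0.08 (SD, n = 3). The comparisons with day 0 share its 3 arrays, and replicate 1 was the day 0 array nearest to the medium mean for 6 of 10 members, Igf1, Igf1r, Irs2, Igfbp2, Igfbp5 and Igfbp6, and for 59.5% of all genes.

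Igfbp2, a binding protein known to support blood stem cells in culture, had its highest mean at day 0 and its lowest on day 2. It read 6.10, 8.18 and 9.09 at day 0, 5.54 and 5.52 in the medium control, and 6.97, 6.58 and 6.57 on day 1. It read 4.25, 4.18 and 5.52 on day 2 and 7.20 and 3.26 on day 3. All day 0 arrays were above both medium arrays and all day 2 arrays, and the day 3 arrays stood far apart. The changes from day 0 were -2.26 ± 1.11 in the medium control (limma, adjusted p = 0.593), -3.14 ± 0.99 on day 2 (0.105) and -2.56 ± 1.11 on day 3 (0.348), none past the threshold. The day 3 change was -4.53 without replicate 1 and -0.59 without replicate 2 of that day.

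Igfbp6, which prefers IGF2 as its ligand, spread widely within the co-culture groups. It read 8.77, 10.15 and 10.33 at day 0 and 8.11 and 7.97 in the medium control. On co-culture arrays it read 10.14, 8.01 and 9.23 on day 1, 6.30, 5.44 and 9.65 on day 2, and 11.37 and 7.46 on day 3. Day 0 lay wholly above the medium control (-1.71 ± 1.38, limma, adjusted p = 0.875), while every co-culture day overlapped day 0. The day 2 change was -2.62 ± 1.23 (0.208).

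The chosen probe set of Igfbp3, the main carrier of IGFs in serum, read above 11 on every array. It read 14.08, 14.92 and 14.10 at day 0, 14.22 and 14.24 in the medium control and 14.62, 14.44 and 14.50 on day 1. It read 11.21, 13.07 and 14.24 on day 2 and 14.70 and 12.81 on day 3. The 2 lowest readings were those of day 2 replicate 1 and day 3 replicate 2, the arrays with the largest Gapdh 3′ to 5′ differences. The change on day 2 against day 0 was -1.52 ± 0.71 (limma, adjusted p = 0.205), or -0.71 ± 0.55 without day 2 replicate 1. A second probe set of Igfbp3, 1458268_s_at, gave -2.19 ± 1.17 (0.339) on day 1 against the medium control, where the chosen one gave 0.29 ± 0.79 (0.991). It read 8.84 to 11.8 on the arrays without LSK cells and 5.34 to 9.61 on those with them. Against day 0 it gave 1.49 ± 1.17 (0.86) in the medium control, -3.32 ± 1.04 (0.105) on day 2 and -2.24 ± 1.17 (0.443) on day 3.

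Igfbp4, an inhibitory binding protein that the protease pappalysin cuts, ran from 7.12 on day 2 replicate 3 to 10.80 on day 0 replicate 2. In these readings of the chosen probe set, all groups overlapped in pairs of neighbouring means. On day 1 against the medium control the 5 Igfbp4 probe sets past the filter gave -1.80 to 0.05. The lowest, 1423756_s_at (-1.80 ± 1.10, limma, adjusted p = 0.423), read 5.82 and 6.44 in the medium control and 3.19 to 5.67 in co-culture. It read 4.54, 8.84 and 6.14 at day 0. Against day 0 it gave -2.17, -2.16 and -1.84 on days 1, 2 and 3 (limma, adjusted p = 0.297, 0.197 and 0.512). Igfbp5, which binds matrix, had its lowest array in the medium control (4.03) and its highest on day 2 (7.25), and differed from the medium control by 1.30 ± 0.63 on day 1 (limma, adjusted p = 0.278). The medium arrays of Igfbp5 read 4.03 and 5.78, and that difference was 0.42 without medium replicate 1 and 2.18 without replicate 2. Igfbp7, which binds IGFs weakly, ran from 10.94 to 12.44 at day 0, 12.01 and 12.02 in the medium control and 11.56 to 13.02 on day 1. Its day 2 replicate 1 reading of 9.00 was the lowest, and its day 2 change from day 0 was -0.74 with that array and 0.16 without it. On day 1 against the medium control the chosen probe set of Igfbp7 gave 0.34 ± 0.84 (limma, adjusted p = 0.98). Its second probe set, 1423585_at, gave -0.55 ± 0.28 (0.309) there. None of Igfbp4, Igfbp5 and Igfbp7 passed in any comparison.

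**Figure D3:**
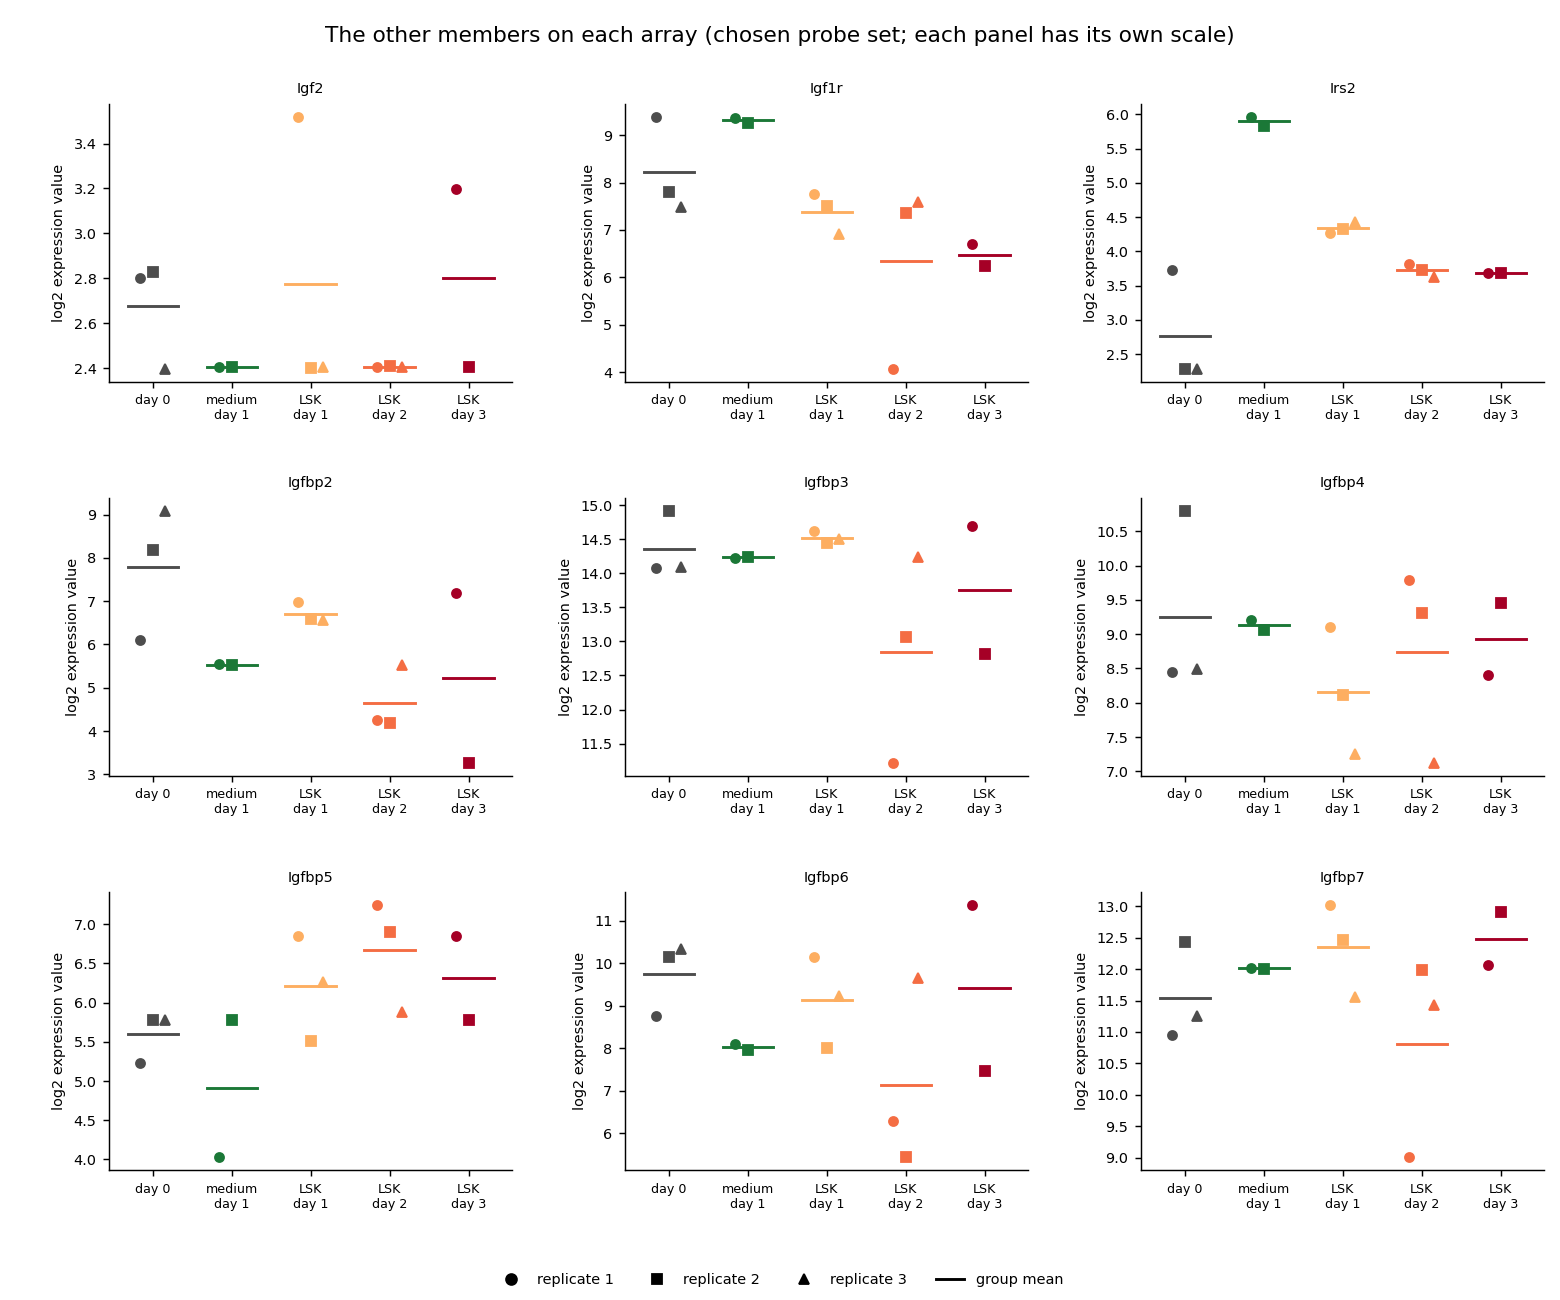
Log2 expression value of the other 9 members on each array (points, by replicate) with the group mean (bar), in 1 panel a gene with its own scale. Irs2 was at 5.83 and 5.97 in the medium control and at most 4.43 elsewhere, while Igfbp2, Igfbp3 and Igfbp6 each had day 3 arrays far apart.

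Counted over comparisons, few members passed the threshold, and few of all genes did. The median absolute change of the members exceeded that of all genes in each comparison. On day 1 it was 1.13 beside 0.56 against the medium control and 0.82 beside 0.46 against day 0. That difference was not tested. On day 1 against day 0, 0 of 10 passed, where 2.15% of all genes did, and 1 had an unadjusted p under 0.05, where 17.3% of all genes had one. On days 2 and 3 against day 0, 0 of 10 passed, where 2.26% and 0.819% of all genes did, and 3 and 2 had an unadjusted p under 0.05, where 26.3% and 13.8% of all genes had one. Days 2 and 3 against day 1 gave 0 of 10 as well, where 0.00819% of all genes passed in each, with 1 and 0 at an unadjusted p under 0.05, where 12.6% and 2.93% of all genes had one. Against the medium control on day 1, and from day 0 to that control, 2 members each had an unadjusted p under 0.05, where 20.9% and 9.45% of all genes had one. The groups did not overlap for 5 members on day 1 against the medium control (62.5% of all genes) and for 4 from day 0 to the medium control (43.3%). Against day 0 they did not overlap for 2, 3 and 1 members on days 1, 2 and 3, where 39%, 22.7% and 35.6% of all genes did not. Against day 1 they did not overlap for 4 members on day 2 and 2 on day 3, where 12.4% and 19.8% of all genes did not. The median change of the members was 0.31 on day 1 against the medium control, beside 0.0021 for all genes, and -1.13 on day 2 against day 0, beside -0.29. Of the 10 signs on day 2 against day 0, those of Igf2, Igfbp4 and Igfbp7 turned when arrays were centred on their measured probe sets, which moved the median of all genes to 0.58.

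**Figure D4:**
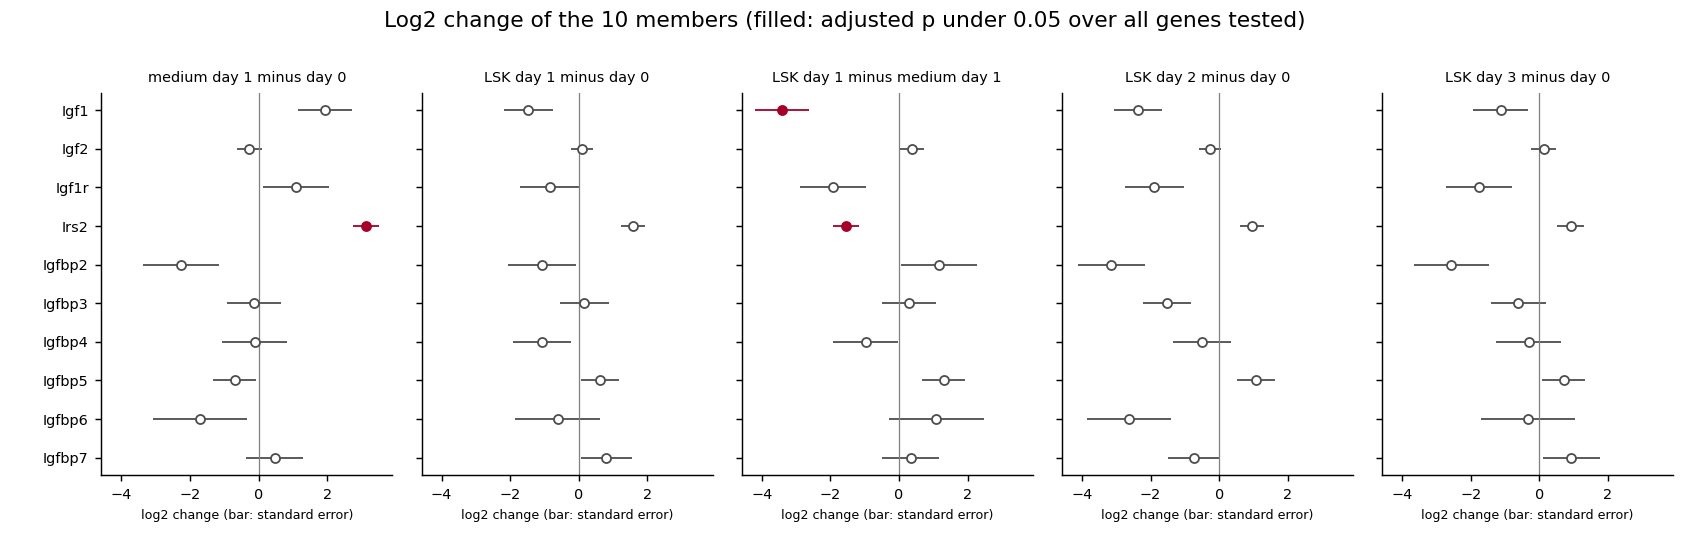
Log2 change (point) with its standard error (bar) for the 10 members in 5 comparisons, filled where the adjusted p was under 0.05. Filled points are Irs2 in the medium control against day 0 (3.13) and Igf1 (-3.40) and Irs2 (-1.55) on day 1 of co-culture against the medium control.

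Other genes of the pathway were read from lists. Of 11 other ligands, receptors, adaptors and carriers, 5 were measured and 0 passed in any of the 7 comparisons, where 0.00819% to 5.2% of all genes passed. Igf2r, which clears IGF2, differed by -0.80 ± 1.58 (limma, adjusted p = 0.931) and the adaptor Irs1 by -0.59 ± 1.65 (0.993) on day 1 against the medium control. Irs1 read 11.9 to 12.4 at day 0, 11.2 in the medium control on both arrays and 10.2 to 11.1 in co-culture, apart from 3.74 on day 2 replicate 1. The list's median change on day 1 against the medium control was -0.18.

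Of 6 genes for proteases of binding proteins and their inhibitors, 5 were measured, and Adam12, a protease that cuts IGFBP3 and IGFBP5, rose on day 1 against day 0. It read 3.43, 3.42 and 3.17 at day 0, 4.58 and 4.71 in the medium control and 4.87, 5.63 and 4.75 on day 1. The change was 1.74 ± 0.36 (limma, adjusted p = 0.0447), with 0 others past the threshold, where 2.15% of all genes passed, and the call ended with any 1 of the 6 compared arrays (0.102 to 0.166) or either medium array (0.0885) left out. The medium control lay above day 0 as well (1.30 ± 0.40, 0.287). Adam12 read 3.75, 4.42 and 4.42 on day 2 and 3.17 and 4.42 on day 3, so day 3 overlapped day 0, with changes from day 0 of 0.86 ± 0.36 (0.172) and 0.46 ± 0.40 (0.71). The list's median change was 0.87 on day 1 against day 0, beside 0 for all genes.

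Of 26 genes for signal transduction from the receptor to mTOR and FOXO, 24 were measured. Among them Eif4ebp1 was the 1 that passed, on day 1 against day 0 alone, where 2.15% of all genes passed. Eif4ebp1 encodes an inhibitor of translation start that mTOR phosphorylates. It read 10.74, 9.97 and 10.80 at day 0, 10.74 and 10.60 in the medium control, and 11.71, 12.45 and 12.09 on day 1. All 8 co-culture arrays (11.23 to 12.45) lay above the 5 others, and the share of all genes that do so was not counted. The rise was 1.58 ± 0.31 on day 1 against day 0 (limma, adjusted p = 0.04), and the call ended with any 1 of the 6 compared arrays (0.0627 to 0.161) or either medium array (0.0805) left out. Against the medium control it differed by 1.41 ± 0.35 (0.0501). The list's median change there was 0.12.

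Of 18 genes known as FOXO targets, 17 were measured, Irs2 among them. Cited2, a co-regulator that FOXO factors can induce, read 13.27, 12.51 and 11.64 at day 0 and 12.73 and 12.78 in the medium control. It read 9.95, 8.60 and 9.62 on day 1, 9.91, 9.20 and 10.58 on day 2 and 10.21 and 9.97 on day 3, so all co-culture arrays lay under the 5 others. The share of all genes that part the arrays so was not counted. Cited2 fell on day 1 against the medium control (-3.37 ± 0.56, limma, adjusted p = 0.0157), on day 1 against day 0 (-3.08 ± 0.50, 0.0215) and on day 2 against day 0 (-2.58 ± 0.50, 0.0377). The first call held in 1 of 5 removals of a compared array and ended without either medium array or day 1 replicate 2 or 3 (adjusted p up to 0.153). The second held in 1 of 6, without day 0 replicate 3, and also ended without either medium array (0.0509). The day 2 call held in 2 of 6, without day 0 replicate 3 or day 2 replicate 3, and ended without any 1 array of the other groups (0.0511 to 0.0792).

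Cat, the gene of the peroxide-removing enzyme catalase, read 10.6 to 10.8 at day 0, 10.31 and 10.48 in the medium control, 11.1 to 11.2 on day 1, 11.2 to 11.9 on day 2 and 11.7 on both day 3 arrays. It rose by 0.85 ± 0.18 on day 2 against day 0 (limma, adjusted p = 0.0498). The call held in 2 of 6 removals of a compared array, without day 2 replicate 1 or 3, and ended without any 1 array of the other groups (0.0561 to 0.0929). The mean of all Cat probe sets went the other way (-0.28, adjusted p = 0.55). Of the 17 FOXO targets, 0 rose and 2 fell (Irs2 and Cited2) on day 1 against the medium control, where 5.2% of all genes passed. From day 0 to the medium control 1 rose (Irs2), where 0.328% of all genes passed. On day 1 against day 0, 1 fell, and on day 2 against day 0, 1 rose and 1 fell, where 2.15% and 2.26% of all genes passed. The other 3 comparisons had 0. The list's median change was -0.18 on day 1 against the medium control and -0.69 on day 1 against day 0.

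**Figure D5:**
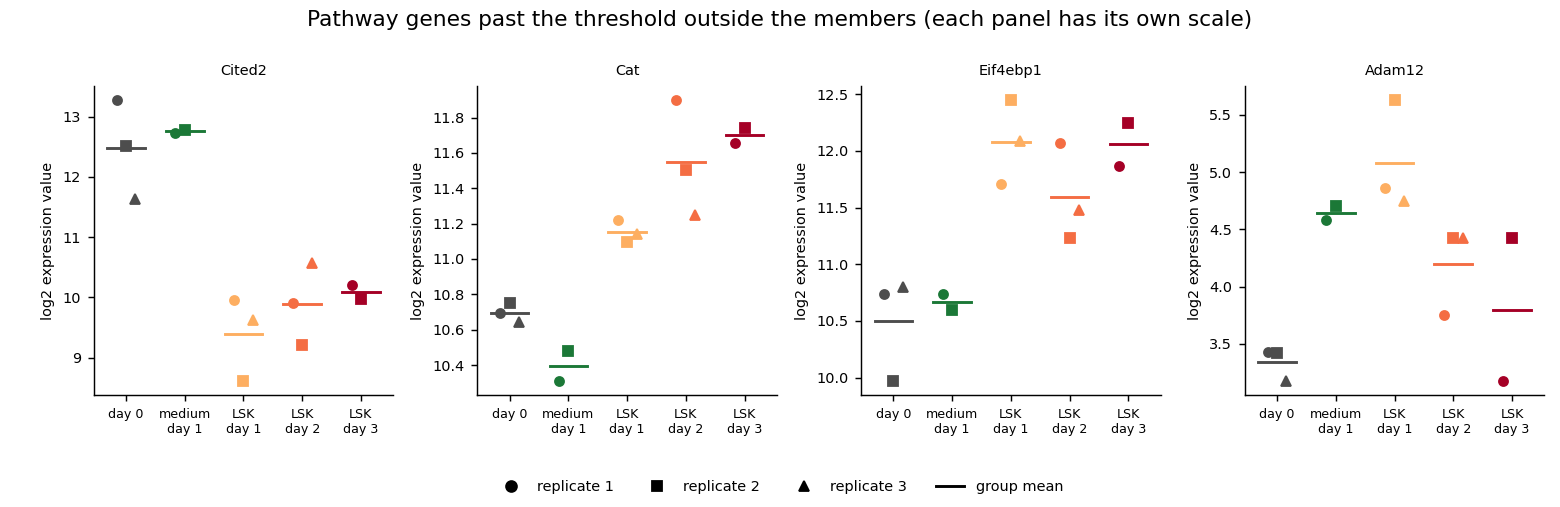
Log2 expression value on each array (points, by replicate) with the group mean (bar) for 4 pathway genes outside the members, each panel with its own scale. Cited2 was at 8.60 to 10.6 on the 8 co-culture arrays and at 11.6 to 13.3 on the 5 others, and Eif4ebp1 was higher on all co-culture arrays.

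Of 3 RNA-binding proteins that bind Igf2 mRNA, 2 were measured and 0 passed: Igf2bp1 differed by 1.80 ± 1.19 (limma, adjusted p = 0.471) and Igf2bp3 by -0.34 ± 0.51 (0.853) on day 1 against the medium control. Of 14 imprinted growth genes, 9 were measured and 0 passed. The transcription factor gene Plagl1 differed by -3.32 ± 1.16 (0.134) and the noncoding RNA gene Meg3 by 2.17 ± 0.62 (0.0754) in the same comparison. Igf2r, the insulin receptor gene Insr and the adaptor Grb10 each stand on 2 of the lists read here, and Irs2 is both a member and a listed FOXO target.

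The genes whose course over the 13 arrays was most like that of Igf1 were Gatad2b, Zfp9 and Ermp1, with root mean square differences of centred log2 values of 0.596, 0.613 and 0.642, against a median of 1.63 over all genes. For Irs2 they were Nfic, Pabpc4 and Exosc1, at 0.446, 0.498 and 0.529, against a median of 1.27. These are descriptions over arrays that share groups, and no test was made of them.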

How the data were processed

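RNA from 13 samples of mouse stroma was measured on microarrays, and groups were taken from the titles. Each array has 1 deposited log2 value per probe set, between 2.28 and 15.7; the log base was taken from that span. Both RMA and GCRMA appear in the tool list, per the submitters' processing notes, with no version and without saying which gave the deposited table. They were used with no further scaling. Between 32.5% and 45.8% of an array's probe sets lay at its lowest value. Arrays have no read depth, and their number limits the precision.

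The filter kept probe sets whose value exceeded 2.38, the median of the whole table, on 2 or more arrays. Gene symbols came from the platform annotation, and of 45101 probe sets 34945 had 1 symbol, 932 had several, 9160 had none and 64 were controls. Each gene was its single-symbol probe set with the highest mean. All 13 arrays and 5 group means entered 1 linear model (limma 3.58.1 with R 4.3.3, lmFit and eBayes), from which 7 comparisons were drawn. The fit was also run on simulated data with normal noise, equal on all arrays and with no shared lowest value. That run does not speak to values near the lowest value or to an outlying array. Figures used Python 3.11.15. Promoters were taken from RefSeq on GRCm38.p6, which held all 10 members in 14 windows.

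The members and lists were chosen with earlier results of these data known. By rule all 10 members are named, from each other list up to 4 genes with the largest change past the threshold and groups without overlap, or, if no gene of a list passed, up to 2 given as values, and for each member that passed the 3 genes nearest in course. Alternatives changed the filter, scaling, probe set, weights, arrays or block. The removal of 2 arrays together and the tests of single Igf1 probe sets under these alternatives were chosen later, with these values known.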

Additional observations from a re-analysis of the deposited data

How the results depend on the processing

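Counts of members past the threshold moved as follows. On day 1 against the medium control 2 members passed, and 0 without the filter, 0 under quantile normalization, 1 with centring, 4 with array weights, 5 in a fit of the compared groups alone, and 0 to 3 with 1 array left out. From day 0 to the medium control 1 passed, and 0 with centring, 5 with array weights, 0 in a fit of the compared groups alone and 0 to 1 with 1 array left out. On day 1 against day 0, 0 passed, and 1 under quantile normalization, 2 with the mean of a gene's probe sets, 1 with array weights, 1 without both arrays of large Gapdh difference (chosen after seeing the data) and 0 to 1 with 1 array left out. On day 2 against day 0, 0 passed, and 1 with the mean of probe sets, 2 with array weights and 0 to 4 with 1 array left out. On day 3 against day 0 the removals gave 0 to 1, on day 2 against day 1 they gave 0 to 1, and on day 3 against day 1 they gave 0. Over all genes, quantile normalization gave 692 and centring 223 on day 1 against the medium control, beside 635. From day 0 to the medium control they gave 28 and 4, beside 40. On day 1 against day 0 quantile normalization gave 299, beside 263. All-gene counts under the other settings, array weights and the compared groups alone among them, are not given here. Member counts under those settings therefore have no share of all genes beside them.

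With the replicate number as a block, 0 members passed on day 1 against the medium control (Igf1 -3.43, limma, adjusted p = 0.095, and Irs2 -1.47, 0.096) and 0 from day 0 to the medium control (Irs2 3.05, 0.0765). All 4 Igf1 probe sets kept their sign there, and 3 of them passed (adjusted p = 0.0242 to 0.041). The block ended the day 3 call of the Igf1 probe set 1434413_at against day 0 (0.076), and quantile normalization ended the day 1 call of the chosen one against the medium control (0.0512). Same-numbered arrays did not deviate together (correlations of -0.371 to 0.261, 8 of 23 above 0.1, and 5 of 13 arrays nearest to their own number), so the numbers were not taken as pairs.

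Cat on day 2 against day 0 turned from 0.85 to -0.28 with the mean of its probe sets, and the cause was not tested. Over all genes, single removals moved the number past the threshold from 635 to between 7 and 2103 on day 1 against the medium control, from 40 to between 8 and 166 from day 0 to the medium control, from 263 to between 9 and 1290 on day 1, from 276 to between 26 and 3497 on day 2 and from 100 to between 4 and 939 on day 3 against day 0. Under quantile normalization the share of higher calls went from 41.4% to 53.8% on day 1 against the medium control, from 38.4% to 51.5% on day 1 against day 0 and from 28.3% to 46.1% on day 2 against day 0, and centring gave 54.3% for the last and 50% in place of 67.5% from day 0 to the medium control. Values at or near the table's lowest value have no order, so changes of Igf2 and of dim probe sets are limited by signal over background.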
